A study of Mus musculus with 10 samples.

Results

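The genes described here encode the proteins of the cytosolic ribosome, measured in the livers of young and old male mice. They were chosen by symbol: those beginning Rpl or Rps followed by a digit, together with Rplp0, Rplp1, Rplp2 and Rpsa, without the Rps6k kinases and without symbols containing -ps, and with a mean count of 10 or more over the 10 livers. Of 24537 symbols in the count table, 89 matched the pattern and 86 passed the count minimum. The rule itself uses no comparison between groups, but it was set with earlier results of these data known. The 86 comprised 31 proteins of the small (40S) subunit, 46 of the large (60S) subunit and 9 symbols that stand for copies, relatives or partners of these: Rpl22l1, Rpl32l, Rpl36al, Rpl37rt, Rpl7l1, Rps19bp1, Rps27l, Rps27rt and Rps4l. The symbols just outside the minimum were Rpl3l, with a mean count of 2.1, Rpl39l with 0.5 and Rpl10l with 0. Just inside it were Rpl32l with a mean count of 32.2 and Rps19bp1 with 269.9. All 86 also passed the filter on low counts used for testing.

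RNA came from whole liver. Every mouse had received adeno-associated virus serotype 8 carrying saCas9 under the hepatocyte promoter TBG and a guide RNA, so only hepatocytes were meant to be edited and all other liver cells kept an intact gene. Young Rosa26 controls (3 livers, labelled Rosa26-KO, a guide to a locus used as a neutral target) received virus at 7 months and were 9 months old. Old Rosa26 controls (3 livers) received virus at 23 months and were 25 months old, as were the old Cd44 knockout mice (4 livers), of which replicates 1 and 2 carried guide 4 and replicates 3 and 4 guide 2. Numbers given to the livers of a group are names only. The labels name no animals, so p-values measure the spread between these samples, which may be partly technical.

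A ribosome is built from ribosomal RNA and one copy each of most of these proteins, the acidic stalk proteins Rplp1 and Rplp2 being present in more than one copy. The messages of the proteins begin with a run of pyrimidines, the 5' terminal oligopyrimidine (TOP) tract, through which the kinase mTOR and the RNA-binding protein Larp1 hold them together as one group in translation and stability. In liver, where hepatocytes export plasma proteins in bulk, ribosomes are a large part of the cell's investment, and the messages of the proteins are among the most evenly expressed.

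RefSeq start-site windows (GRCm38.p6, 250 bases before to 50 after each annotated start) were found for 65 of the 86 genes. The windows below show 15 bases before and 15 from the start base onward, 5' to 3' on the gene's strand. They were picked to show what a window with the tract and one without it look like, and not to contrast kinds of gene. Capitals mark a C at the start base followed by 4 or more bases that are each C or T, the form of the TOP tract. Of the relatives, Rps27rt and Rpl32l (not shown) have a tract at the start base. Rpl7l1 and Rps27l (the first of its annotated starts) are among those that do not. Most canonical genes do not have it there either, Rps4x being the example shown.

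Rps6, chr4:86857353-86857382, minus strand: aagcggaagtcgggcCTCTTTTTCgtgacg
Rps10, chr17:27635230-27635259, minus strand: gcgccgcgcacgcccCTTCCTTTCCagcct
Rps18, chr17:33955651-33955680, minus strand: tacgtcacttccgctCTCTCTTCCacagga
Rpl15, chr14:18270972-18271001, minus strand: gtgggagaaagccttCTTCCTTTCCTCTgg
Rpl38, chr11:114668565-114668594, plus strand: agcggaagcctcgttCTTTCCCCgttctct
Rplp2, chr7:141447636-141447665, plus strand: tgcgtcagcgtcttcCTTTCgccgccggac
Rps27rt, chr9:114982725-114982754, minus strand: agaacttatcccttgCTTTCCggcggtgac
Rps4x, chrX:102189377-102189406, minus strand: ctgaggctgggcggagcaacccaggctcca
Rpl7l1, chr17:46782642-46782671, minus strand: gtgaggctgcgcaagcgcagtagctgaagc
Rps27l, chr9:66946071-66946100, plus strand: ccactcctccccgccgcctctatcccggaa

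A tract of this form began exactly at the annotated start base in 15 of the 65 genes (23.1%), against 3.01% of the 27025 symbols with a window. Allowing it to begin within 10 bases of the start base raised this to 38 of 65 (58.5%), against 34.4% of all symbols. The ETS-type motif CCGGAAG, on either strand anywhere in the 300 bases, was present in 25 of 65 (38.5%) and in 9.93% of all symbols. TATAAA on either strand was found in 8 of 65 (12.3%) and in 15.7% of all symbols. A match describes the letters of a window only, and annotated starts can lie some bases from those used in liver.

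Total counts were 15821198 to 21710228 per liver. TMM factors, the scaling that sets the bulk of genes level between libraries, were 0.82 to 0.90 in the young livers and 0.97 to 1.1 in the old ones. Levels per liver are given below as CPM, counts scaled to library size and these factors. The 8 hepatocyte markers summed to 101753 to 130436 CPM in young, 84264 to 110210 CPM in old Rosa26 and 90608 to 94948 CPM in knockout livers, and of these Hnf4a (-0.96, edgeR adjusted p 0.0147) and Serpina1c (-0.77, edgeR adjusted p 0.0129) were lower with age. Summed endothelial markers lay at 91.9 to 136 CPM in young, 188 to 212 CPM in old Rosa26 and 108 to 165 CPM in knockout livers, and summed stellate markers at 137 to 215, 281 to 426 and 232 to 277 CPM. Summed markers of T and NK cells lay at 2.20 to 2.57 CPM in young and 7.87 to 16.1 CPM in knockout livers. In old Rosa26 replicates 1, 2 and 3 they lay at 7.76, 22.1 and 3.43 CPM. Summed markers of B and plasma cells lay at 3.69 to 8.01 CPM in young and 21.6 to 29.8 CPM in knockout livers. For old Rosa26 replicates 1, 2 and 3 they were 25.3, 34.5 and 8.39 CPM. Summed myeloid markers lay at 151 to 216 CPM in young and 224 to 522 CPM in knockout livers. They were 297, 1298 and 492 CPM in old Rosa26 replicates 1, 2 and 3. The part of these cell-type markers in the results was not tested. In whole liver, fewer cells of a type and less RNA per cell cannot be told apart. Cd44 itself had 14.2 to 29.98 CPM in old Rosa26 livers and 13.1 to 29.00 CPM in the livers labelled knockout. The log2 difference was -0.25 (SE 0.30, edgeR adjusted p 0.896). By guide, it was -0.60 for guide 2 (SE 0.34, edgeR adjusted p 0.774) and 0.04 for guide 4 (SE 0.33, edgeR adjusted p 0.999). The count of Cd44 thus did not tell the groups apart, and directions below rest on the labels.

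The ribosomal protein genes together took a small and variable share of each library. In young Rosa26 replicates 1, 2 and 3 they held 1.47%, 1.53% and 1.56% of all counts. In old Rosa26 replicates 1, 2 and 3 they held 2.40%, 2.04% and 1.30%. In knockout replicates 1 to 4 they held 1.85%, 2.14%, 1.91% and 2.23%. The old Rosa26 group thus contained both the highest and the lowest liver of the study and overlapped both other groups, while each knockout liver lay above every young one. After TMM scaling the sums were 17687 ± 750.0 CPM in young (SD, n = 3), 17813 ± 4129 CPM in old Rosa26 (SD, n = 3) and 18932 ± 1327 CPM in the 4 knockout livers (SD). On this scale knockout and young livers overlapped, at 17623 to 20615 against 17136 to 18541 CPM, and the spread of the old Rosa26 livers was the widest of the 3 groups.

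**Figure D1:**
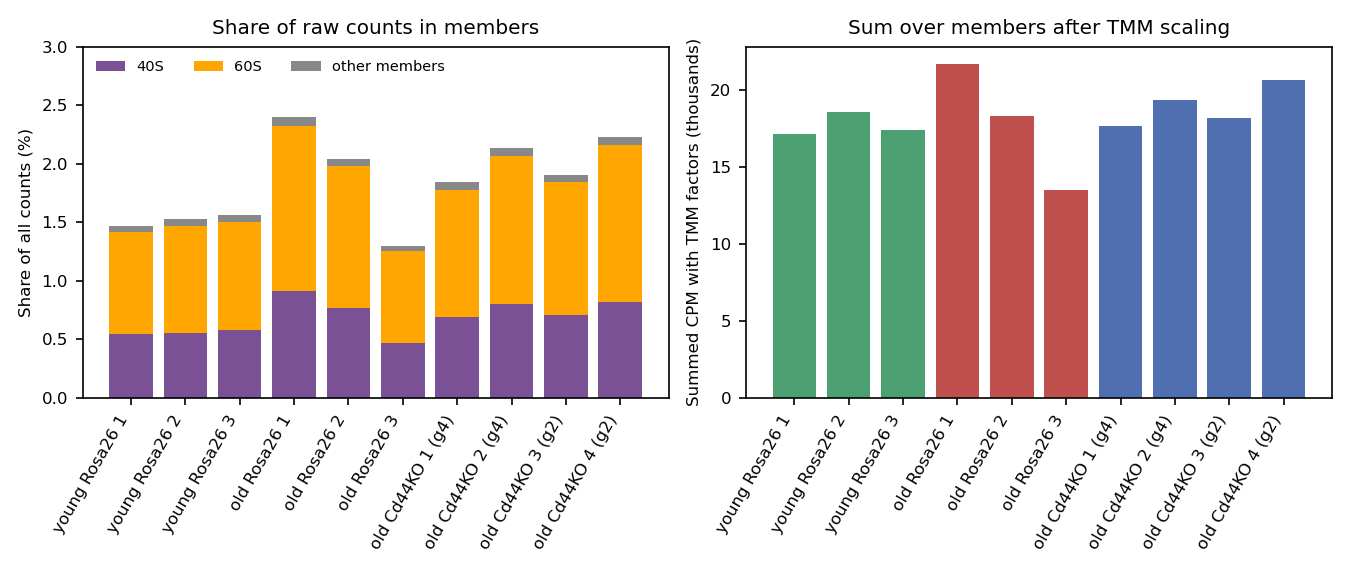
Left, share of all raw counts (%) in the 86 genes for each liver, divided into 40S proteins, 60S proteins and other symbols; right, their summed CPM with TMM factors (axis divided as labelled), coloured by group. Old Rosa26 replicate 1 holds 2.40% and replicate 3 holds 1.30%, the extremes of the left panel, and the young bars rise level with the others after scaling.

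The 2 subunits kept step with each other. The ratio of 60S to 40S counts lay between 1.54 and 1.67 in every liver, with a mean of 1.62 ± 0.0198 in young (SD, n = 3), 1.60 ± 0.0653 in old Rosa26 (SD, n = 3) and, over the 4 knockout livers, 1.60 ± 0.0228 (SD). The ratio was lowest in old Rosa26 replicate 1 and highest in old Rosa26 replicate 3, so the liver with the most ribosomal protein message had relatively more 40S and the liver with the least relatively more 60S.

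Single genes rose and fell with the whole. When each gene's log2 CPM was centred on its own mean over the 10 livers, the median of the 86 deviations was 0.31 in old Rosa26 replicate 1, 0.02 in replicate 2 and -0.47 in replicate 3. In knockout replicates 1 to 4 it was -0.03, 0.12, 0.00 and 0.23, and in young replicates 1 to 3 it was -0.10, 0.02 and -0.10. Old Rosa26 replicate 1 had the highest level of all livers for 56 of the 86 genes, knockout replicate 4 for 17 and young replicate 2 for 7. Old Rosa26 replicate 3 had the lowest level for 80 of the 86. Its library name lies outside the numbered run of the other names, and whatever that marks cannot be separated from the liver itself.

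One axis described most of this. The first principal component of the 86 genes held 81.0% of their variance, with 82 of 86 loadings of the same sign. Of the sum of squares, 82.0% lay within the groups and not between them. With 3 groups among 10 livers most of it lies within groups even where groups do not differ, so this share alone says little. The median correlation between pairs of the 77 canonical genes was 0.85 over the 10 livers (2926 pairs). Without old Rosa26 replicate 3 the component held 70.9% and the median correlation was 0.70. These correlations are descriptive: the genes share the same libraries and the same scaling factor.

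**Figure D2:**
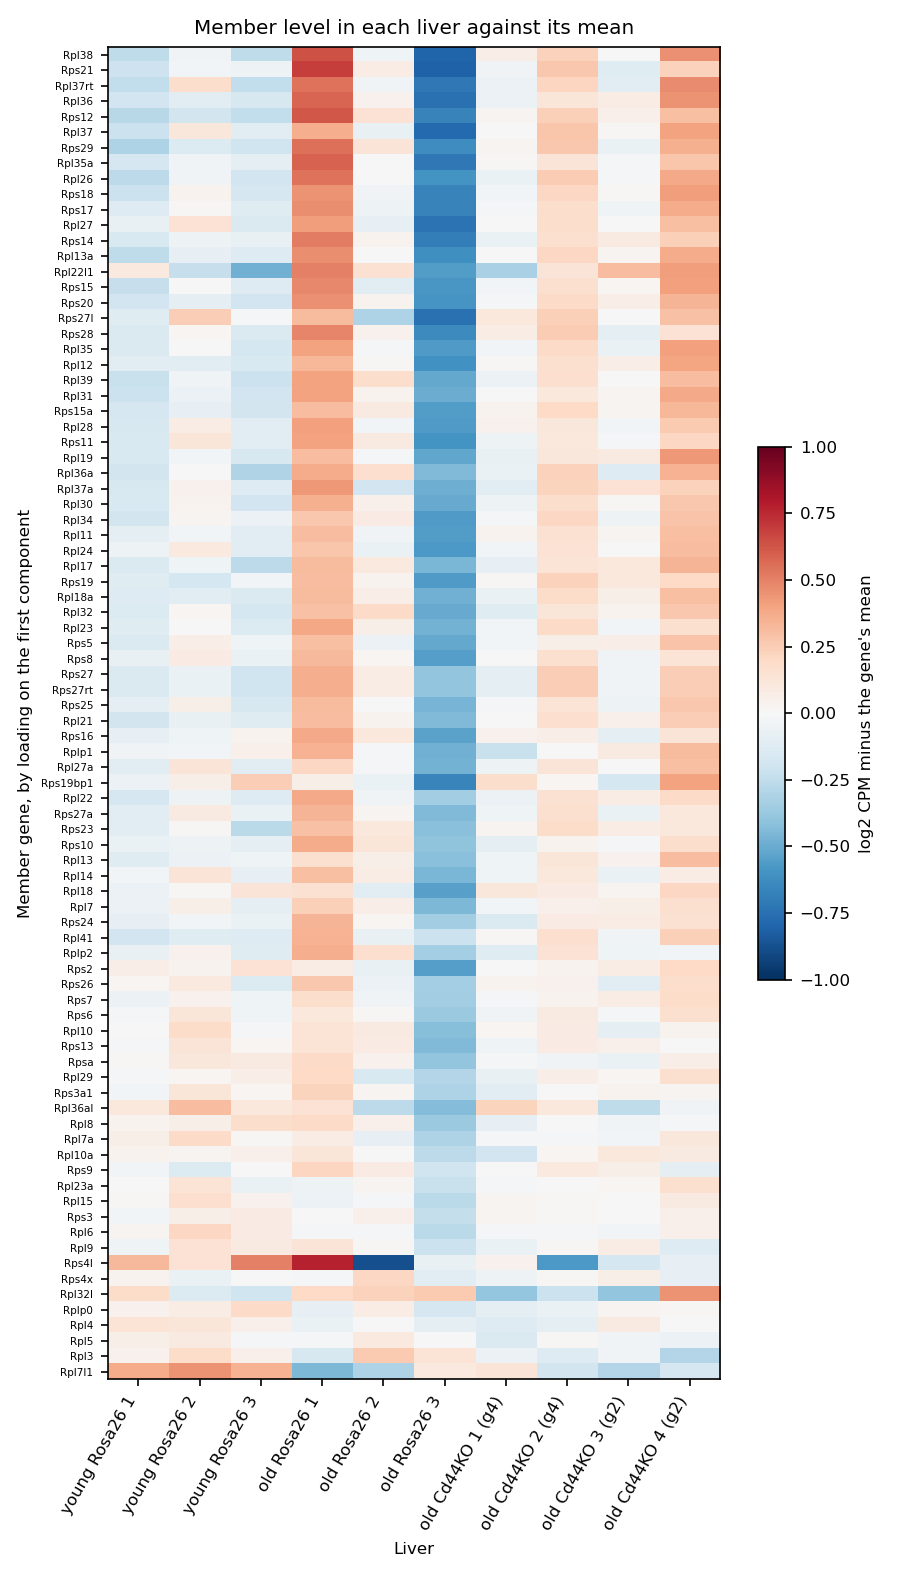
Each row is 1 of the 86 genes, ordered by its loading on the first component, each column is a liver, and colour gives log2 CPM minus the gene's mean over livers. Most rows are red in old Rosa26 replicate 1 and knockout replicate 4 and blue in old Rosa26 replicate 3, which was lowest for 80 genes, while the bottom rows (Rpl7l1, Rpl3, Rpl5, Rpl4) do not follow.

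Amplitude differed between genes. Rpl38, a small 60S protein, had one of the largest spreads, with an SD of log2 CPM of 0.40 over the 10 livers. It had 92.9, 108.6 and 93.2 CPM in young replicates 1 to 3, 172.5, 107.6 and 63.7 CPM in old Rosa26 replicates 1 to 3, and 116.6, 130.5, 110.6 and 152.8 CPM in knockout replicates 1 to 4. The old Rosa26 livers ran from below every young liver to above every knockout liver. Rps21, of the 40S subunit, had an SD of 0.38, and the paralog Rps4l the largest, 0.48.

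The steadiest genes were Rpl5, which with Rpl11 and 5S ribosomal RNA forms the particle that restrains Mdm2, and the 40S proteins Rps4x and Rps3, with SDs of 0.07, 0.09 and 0.09. Rpl5 had 266, 272 and 253 CPM in young, 252, 274 and 257 CPM in old Rosa26 and 231, 258, 250 and 245 CPM in knockout livers. The groups overlapped, and the liver that was lowest for 80 other genes was unremarkable here. Rps4x lay between 218 and 271 CPM in all 10 livers.

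Amplitude went with the length of the message. Among the 86 genes the deviation of old Rosa26 replicate 1 fell with transcript length (Spearman's rho -0.54) and that of old Rosa26 replicate 3 rose with it (rho 0.36), as descriptions across genes that share a library. In young replicates 1 to 3 rho was 0.47, 0.29 and 0.46, in old Rosa26 replicate 2 it was -0.02, and in knockout replicates 1 to 4 it was 0.06, -0.48, 0.15 and -0.42. The sign was thus positive in all young livers and mixed in old livers of both kinds. The median deviation of the 10 canonical genes with the shortest transcripts was 0.43 in replicate 1 and -0.59 in replicate 3. For the 10 with the longest it was -0.01 and -0.25. Over all genes with a known length, deviation and length had a rho of -0.09 in replicate 1 and 0.31 in replicate 3, so length moved with the levels of that library beyond the ribosomal proteins. Its part in the result was not tested.

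Levels could be set beside each other only per length of transcript. Per kilobase, the canonical genes had a median of 301 CPM. Rplp1, a stalk protein that recruits elongation factors, had 604 CPM per kilobase, Rpl10, the protein that completes the 60S subunit, had 603, Rps2 at the messenger entry channel had 519, Rpl41, the shortest protein of the ribosome, had 503.7, and Rps15 had 482. At the lower end Rps3 and Rpl5 had 120 and 125 CPM per kilobase, on long annotated transcripts of 1908 and 2045 bases. Rps20 had 50.9, on an annotated coding transcript of 3706 bases, far longer than those of its fellows. These transcripts may not be the ones used in liver. Before division by length Rpl5 had a mean of 256 CPM, within the canonical range of 87.8 to 572 CPM.

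The first comparison set old against young Rosa26 livers. The ribosomal protein genes showed little shift as a group: 51 of 86 lay above 0 and the median log2 difference was 0.05, beside 0.04 over all 13909 genes tested. A single gene, Rpl7l1, passed edgeR at the adjusted threshold of 0.05, and it was lower in old livers. Over all genes 22.8% passed, 1967 higher and 1205 lower. The 77 canonical genes lay between -0.25 and 0.37, and none passed.

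**Figure D3:**
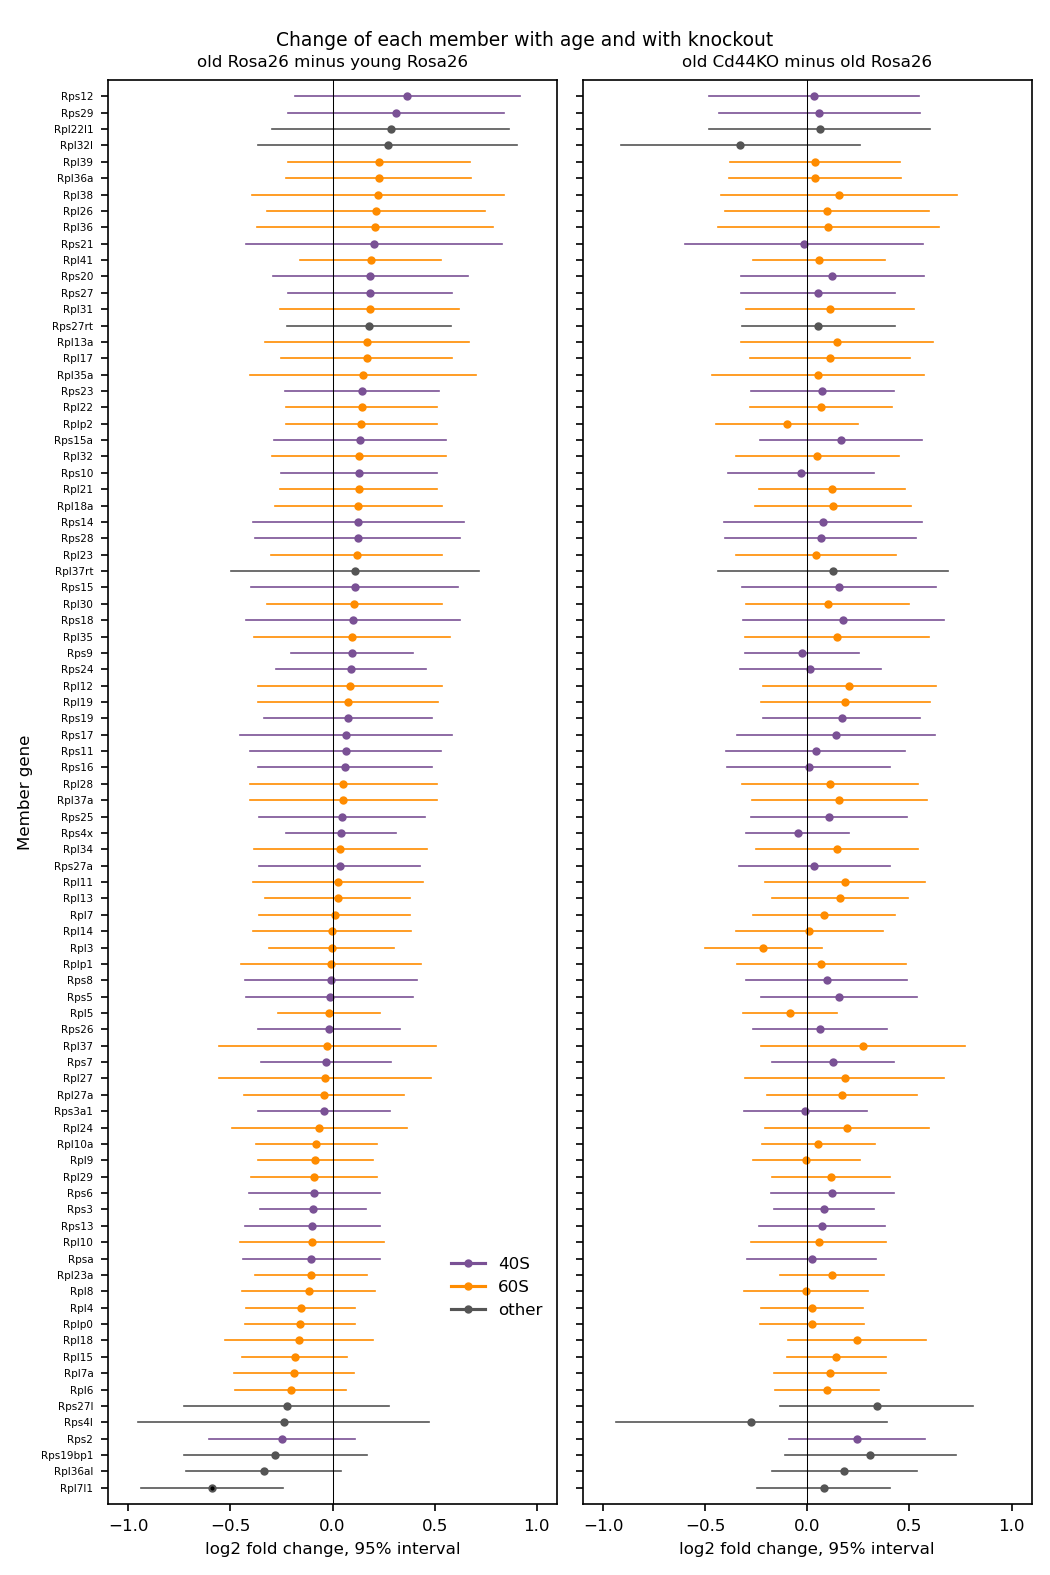
Log2 fold change of each gene with its 95% interval (no adjustment for the number of genes), old Rosa26 minus young Rosa26 on the left and old Cd44 knockout minus old Rosa26 on the right, coloured by subunit and ordered by the left panel. Rpl7l1, at the bottom left with a black centre, is the 1 gene past the adjusted threshold.

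Rpl7l1 (chromosome 17, 46773907 to 46782672 on GRCm38) resembles the 60S protein Rpl7 and is known as a factor of ribosome assembly in the nucleolus, not as a subunit of the finished ribosome. It had 90.5, 95.5 and 89.2 CPM in young livers, 51.4, 56.6 and 74.7 CPM in old Rosa26 livers, and 76.7, 61.5, 57.1 and 62.4 CPM in knockout livers. Every old liver of either kind lay below every young one. The log2 fold change was -0.59 (SE 0.16, edgeR adjusted p 0.0251) for old Rosa26 against young and -0.51 (edgeR adjusted p 0.0472) for knockout against young, comparisons that share the young livers. It was 0.08 (SE 0.15, edgeR adjusted p 0.931) for knockout against old Rosa26. The age call was lost when any young replicate or old Rosa26 replicate 1 or 2 was left out and stayed without old Rosa26 replicate 3, and its direction was the same under all 26 alternatives. The call against young livers was lost for the knockout group without any 1 of its livers except replicate 1, and without any young liver. Beside its canonical relative, Rpl7l1 had 27.0% ± 0.609 of the count of Rpl7 in young (SD, n = 3), 19.2% ± 8.98 in old Rosa26 (SD, n = 3) and, over the 4 knockout livers, 17.9% ± 3.11 (SD). Old Rosa26 replicates 1, 2 and 3 had 12.5%, 15.6% and 29.4%, so that ratio overlapped the young livers.

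By levels alone, 5 genes did not overlap between old and young Rosa26 livers (5.81% of the 86, against 37.7% of all genes tested). Rpl32l was higher, and Rpl4, Rpl6, Rpl15 and Rpl7l1 were lower. Rpl6, of the 60S subunit, had 342, 388 and 355 CPM in young and 330, 333 and 278 CPM in old Rosa26 livers (log2 fold change -0.21, SE 0.12, edgeR adjusted p 0.244). Rpl15, which is needed for early assembly of the 60S subunit, had 172.3, 192.7 and 176.0 CPM in young and 164.3, 168.8 and 142.4 CPM in old Rosa26 livers (-0.19, SE 0.12, edgeR adjusted p 0.263).

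The canonical gene with the largest positive difference was Rps12, a 40S protein. It had 165.5, 176.6 and 169.1 CPM in young, 309.8, 222.7 and 126.3 CPM in old Rosa26 and 204.3, 237.4, 208.1 and 248.0 CPM in knockout livers. Old Rosa26 replicates 1 and 2 lay above all young livers and replicate 3 below them, and the log2 fold change of 0.37 (SE 0.25) had an edgeR adjusted p of 0.303. The lowest canonical value was that of Rps2, at -0.25 (SE 0.16, edgeR adjusted p 0.283).

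The result for the group turned on 2 livers. Without old Rosa26 replicate 3, 71 of 86 genes lay above 0, the median was 0.24, Rpl39, Rps12 and Rps29 passed as higher and Rpl7l1 as lower. Without old Rosa26 replicate 1, 11 lay above 0, the median was -0.16, and Rpl36al and Rps27l passed as lower. Scaling by total counts in place of TMM raised the median of all genes from 0.04 to 0.34 and that of the ribosomal proteins from 0.05 to 0.38, so the group stayed level with other genes, and no gene passed. The correction for GC content and length moved the median to -0.03 with 31 of 86 above 0, beside -0.10 for all genes.

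For single genes the precision was moderate. In the age comparison and in that of knockout with old Rosa26, all 86 intervals of the main fit with TMM factors lay within 2-fold of no change. Within 1.5-fold lay 60 of 86 for age and 66 of 86 for knockout (95%, with no adjustment for the number of genes).

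**Figure D4:**
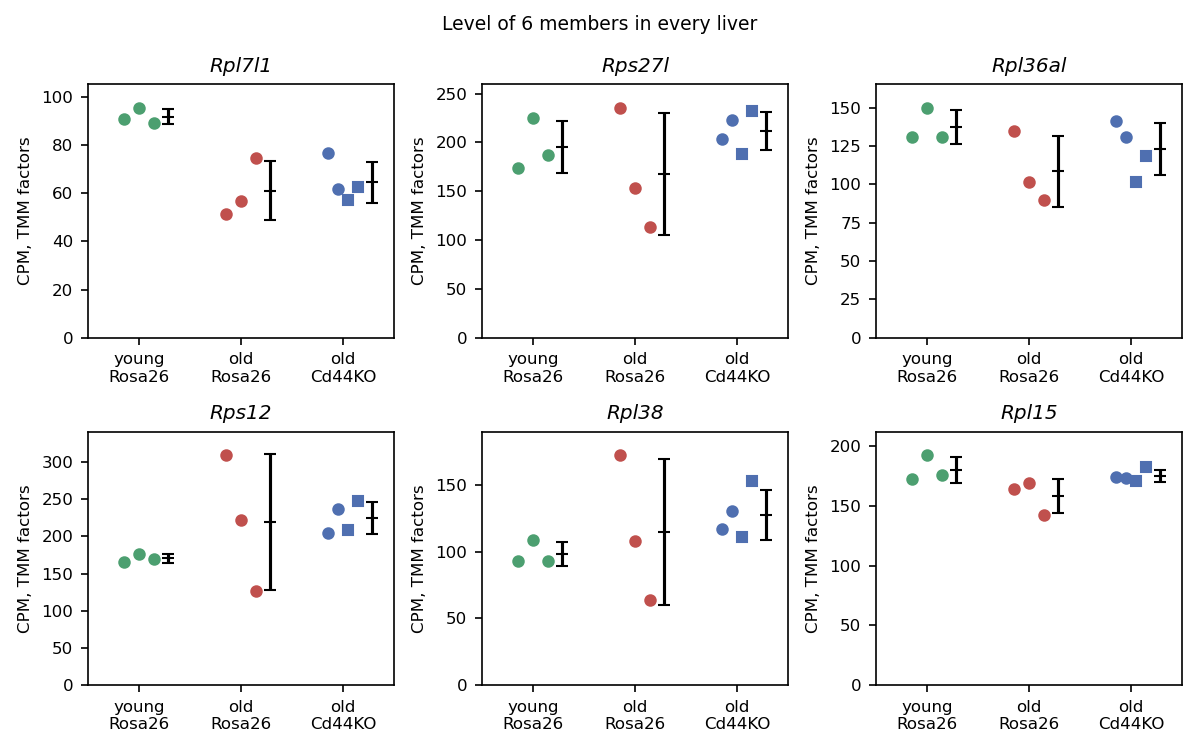
CPM with TMM factors of 6 genes in every liver by group (circles, and squares for guide 2), with the group mean and SD beside the points. Rpl7l1 is lower in all old livers than in young ones, whereas the old Rosa26 livers span the young range for Rps12 and Rpl38.

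The second comparison set old knockout against old Rosa26 livers. No ribosomal protein gene passed the threshold in edgeR, nor in DESeq2 or limma voom, and none had an unadjusted p under 0.05. The smallest adjusted p was 0.794. Across all genes 0% passed in edgeR, and 6.59% had an unadjusted p under 0.05. The values leaned upward in 74 of 86 genes, with a median log2 difference of 0.09 beside -0.02 for all genes. The median was 0.07 for 40S and 0.11 for 60S genes. Since the genes moved together, the lean followed single livers: without old Rosa26 replicate 3 the median was -0.09 with 14 of 86 above 0, and without old Rosa26 replicate 1 it was 0.28 with 81 above 0. With the correction for GC content and length it was 0.04 with 52 above 0, beside 0.01 for all genes.

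Only Rpl15 did not overlap between these groups (1.16% of the 86, against 6.1% of all genes). It had 174.0, 172.9, 170.9 and 182.1 CPM in knockout livers, above the 142.4 to 168.8 CPM of the old Rosa26 livers, a log2 difference of 0.14 with an SE of 0.11 (edgeR adjusted p 0.817). The largest value belonged to Rps27l, a paralog of Rps27 that is known as a target of p53. It had 203.5, 223.0, 188.6 and 232.0 CPM in knockout livers and 235.7, 153.3 and 113.2 CPM in old Rosa26 livers, which overlapped (0.34, SE 0.21, edgeR adjusted p 0.794). Rps2 (0.24, SE 0.15), Rps19bp1 (0.31, SE 0.19) and Rpl3, of the peptidyl transferase centre (-0.21), were among the genes nearest to the threshold.

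The guides were also taken apart. Against old Rosa26 livers, 73 of 86 genes lay above 0 with guide 2 (median 0.13) and 67 with guide 4 (median 0.06), comparisons that share their controls, and none passed. Without old Rosa26 replicate 3 these were 30 (median -0.05) and 9 (-0.13), without knockout replicate 4 guide 2 had 50 (0.02), and without knockout replicate 2 guide 4 had 37 (-0.02). The correction for GC content and length gave 57 and 48. The background was 0.0495% of 14153 genes for guide 2 and 0% for guide 4. Between the guides themselves 16 of 86 lay above 0 (guide 4 minus guide 2, median -0.07), none passed, and the background was 0.0212%. This lean was not there without knockout replicate 1 (44 of 86 above 0) and turned without replicate 4 (57 of 86, median 0.04). Rpl22l1 had the lowest value there, with 24.3 and 33.3 CPM in the guide 4 livers and 37.8 and 40.8 CPM in the guide 2 livers, a log2 difference of -0.44 (SE 0.31), and Rpl36al had the highest, 0.31 (SE 0.20). The smallest edgeR adjusted p there was 0.999965.

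Old knockout livers were also set against young Rosa26 livers. Rpl7l1 alone passed, lower, against 11.6% of all genes tested. The median was 0.14 with 65 of 86 above 0. It was 0.08 without knockout replicate 4 and 0.03, with 46 above 0, under the correction for GC content and length. Without overlap between groups, 16 genes were higher and 5 lower (24.4%, against 40% of all genes). Among the higher ones was Rpl41, with 191, 201 and 199.9 CPM in young and 219.8, 245, 213 and 258 CPM in knockout livers, and among the lower ones Rplp0, the base of the stalk, with 454.8, 463.9 and 503.8 CPM in young and 412, 420, 449 and 444 CPM in knockout livers. Neither passed the test (0.25, edgeR adjusted p 0.262, and -0.14, edgeR adjusted p 0.420).

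Proteins of the stalk and proteins with a second function did not pass in any comparison. The stalk proteins Rplp0, Rplp1 and Rplp2 had log2 differences with age of -0.16, -0.01 and 0.14 and with knockout of 0.02, 0.07 and -0.10. Rps6, the 40S protein phosphorylated downstream of mTOR, had 290, 320 and 285 CPM in young, 317, 296 and 227 CPM in old Rosa26 and 287, 313, 292 and 328 CPM in knockout livers, which overlapped throughout. Rpsa, which also serves as a laminin receptor, had 339 to 508 CPM in old Rosa26 livers, a range that holds all 7 others (424 to 481 CPM). Rps27a, translated as a fusion with ubiquitin, had 147 to 252 CPM in old Rosa26 livers against 185 to 212 CPM in young ones.

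Of the symbols outside the canonical subunits, some cannot be counted apart from their relatives. Rps27rt, a retrotransposed copy on chromosome 9, matched Rps27 of chromosome 3 at 341 of 341 aligned transcript bases, and their coding sequences of 255 bases were identical. Their counts were equal in 5 of 10 livers and differed by at most 9 counts in the others, so their reads were not separated and the level of each is uncertain. Rpl37rt differed from Rpl37 at 1 of 294 bases, Rpl34-ps1 (outside the rule) from Rpl34 at 2 of 354, and Rpl32l from Rpl32 at 10 of 398. The stretches below show coding bases 1 to 60 of Rps27 beside Rps27l and coding bases 229 to 288 of Rpl37 beside Rpl37rt (GENCODE M21 transcripts, GRCm38), because they show which relatives short reads can separate. Capitals mark the bases that differ.

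Rps27: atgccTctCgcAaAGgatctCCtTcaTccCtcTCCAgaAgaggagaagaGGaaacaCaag
Rps27l: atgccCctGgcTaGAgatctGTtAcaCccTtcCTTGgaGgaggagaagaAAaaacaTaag
Rpl37: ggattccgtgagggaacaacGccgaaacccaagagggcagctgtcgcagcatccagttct
Rpl37rt: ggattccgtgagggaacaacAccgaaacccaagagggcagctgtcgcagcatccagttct

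Within the 60 bases shown, Rps27 and Rps27l differed at 18 positions and Rpl37 and Rpl37rt at 1. Rps27l, unlike Rps27rt, differs enough in sequence for short reads to be told apart. The count of Rps27 was not separated from that of Rps27rt, so the height of percentages set against it is uncertain. Rps27l had 134%, 165% and 150% of the count of Rps27 in young livers, 128%, 102% and 104% in old Rosa26 livers, and 152%, 132%, 135% and 137% in knockout livers. All old Rosa26 livers lay below all young and all knockout livers. The log2 ratio differed by -0.43 between old and young Rosa26 (exact permutation p 0.1, two-sided, the smallest that 3 against 3 allows, adjusted 0.3 over 9 pairs) and by 0.32 between knockout and old Rosa26 (exact permutation p 0.0286, two-sided, the smallest that 4 against 3 allows, adjusted 0.257 over 9 pairs). With 3 against 3 livers the age difference could not pass 0.05, and that with knockout did not pass after adjustment. These comparisons share the old Rosa26 livers, so their opposite signs are not independent.

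Rpl36al, a relative of Rpl36a, had 140%, 141% and 152% of the count of Rpl36a in young livers, 98.1%, 84.9% and 115% in old Rosa26 livers and 140%, 105%, 105% and 87.7% in knockout livers. Old Rosa26 livers lay below all young ones (log2 difference -0.55, exact permutation p 0.1, two-sided, adjusted 0.3 over 9 pairs), and knockout livers overlapped them. Rpl22l1, a relative of the RNA-binding protein Rpl22, had 19.5% to 29.7% of its count over all livers, Rps4l had 3.11% to 11.4% of that of Rps4x, and Rpl37rt had 13.0% to 16.1% of that of Rpl37 (uncertain, since they differ at 1 of 294 bases). With age and with knockout their groups overlapped. Between knockout and young livers Rps4l did not, at 4.38% to 7.02% against 7.60% to 9.34%. Rps19bp1, which binds Rps19, had 13.6, 14.8 and 16.9 CPM in young, 14.8, 13.6 and 9.01 CPM in old Rosa26 and 16.1, 14.4, 12.6 and 18.8 CPM in knockout livers.

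Other subunits and other translation genes were read from lists. Fau, a fusion whose ribosomal part joins the 40S subunit, and Rack1, a scaffold on the 40S subunit, did not pass in any comparison. With age Fau had a log2 difference of 0.17 (SE 0.21) and Rack1 of -0.12 (SE 0.13). Fau had 268, 206 and 137 CPM in old Rosa26 replicates 1, 2 and 3 against 177 to 187 CPM in young livers, the same order of livers as most ribosomal protein genes.

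Of 22 other messages known to carry a TOP tract, mostly elongation and initiation factors, 1 lay above 0 with age and the median was -0.18, and none passed in edgeR. In DESeq2 5 passed as lower, and in edgeR 3 did without old Rosa26 replicate 3 while 1 passed as higher without replicate 1. The sign depended on scaling: with total counts the median was 0.13, beside 0.34 for all genes. Eef1a1, the main elongation factor, had 4587, 4215 and 4221 CPM in young and 3455, 3982 and 4234 CPM in old Rosa26 livers. For old Rosa26 replicate 1 the median deviation of this list was -0.13 where that of the ribosomal proteins was 0.31, so those messages did not follow the axis described above. With knockout 13 of 22 lay above 0 (median 0.02).

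Mitochondrial ribosomal proteins, encoded in the nucleus for a ribosome of bacterial type, had lower values with age. Of 78 tested, 17 were called lower and 0 higher in old Rosa26 livers, with a median of -0.28 (10 above 0). These are 21.8% of the list, beside 22.8% of all genes called in either direction and 8.66% called lower. The calls and the sign of the median too depend on scaling. Total counts gave a median of 0.04, beside 0.34 for all genes, with 3 called higher and none lower. With TMM factors the median of all genes was 0.04. Without young replicate 2, 1 passed as lower, and without old Rosa26 replicate 2, 2 did. Mrpl38 had 84.8, 92.8 and 81.8 CPM in young and 59.8, 50.5 and 50.2 CPM in old Rosa26 livers, without overlap (-0.69, SE 0.13, edgeR adjusted p 0.00913). With knockout 71 of 78 lay above 0, with a median of 0.17 beside -0.02 for all genes, and none passed. The comparisons with age and with knockout share the old Rosa26 livers, so their opposite leans are not independent. The median deviation of this list was 0.01, -0.18 and -0.23 in old Rosa26 replicates 1, 2 and 3.

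**Figure D5:**
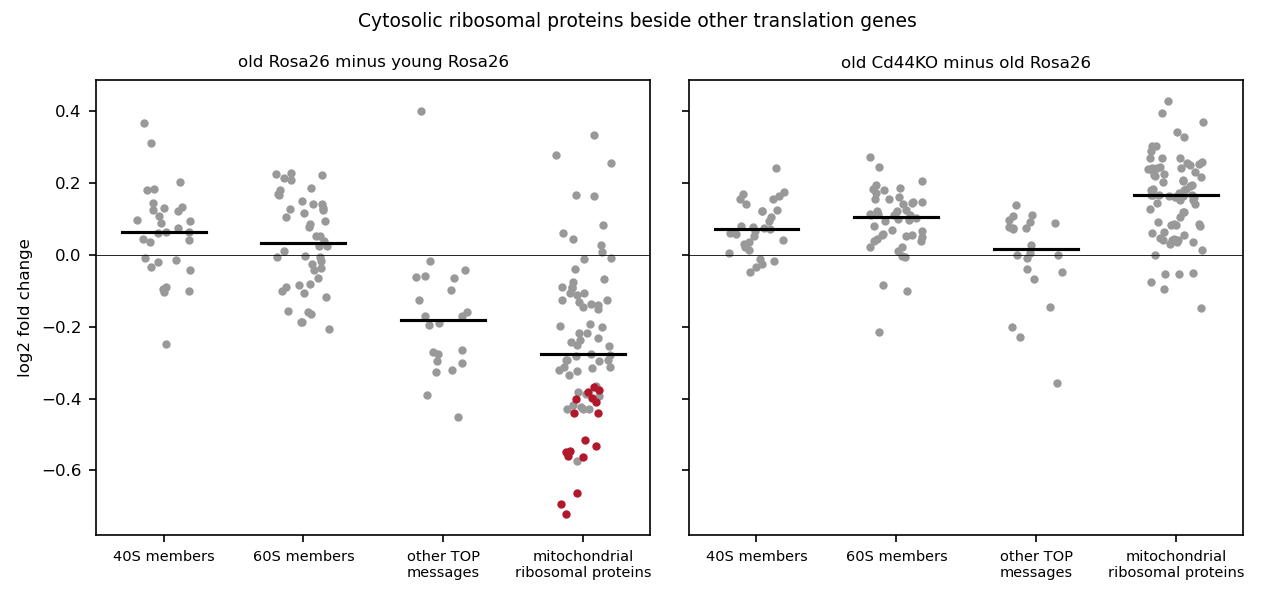
Log2 fold change of each gene (points, red where the edgeR adjusted p is under 0.05) and the median (bar) for 40S and 60S proteins, other TOP messages and mitochondrial ribosomal proteins, with age on the left and with knockout on the right, TMM scaling. With age 17 mitochondrial genes are red and the medians of the cytosolic subunits lie near 0; with total-count scaling the medians with age shift upward by about as much as all genes do.

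The genes that set the synthesis of ribosomal proteins were measured alongside. Of 29 tested, 1 was higher and 5 lower with age (20.7%, beside 22.8% of all genes). Sesn1, which restrains mTORC1 when leucine is scarce, had 8.69, 5.93 and 8.30 CPM in young and 14.9, 16.6 and 12.1 CPM in old Rosa26 livers (log2 fold change 0.93, SE 0.18, edgeR adjusted p 0.00936). Lower were Larp4, a protein that lengthens poly(A) tails (-0.69, SE 0.14, edgeR adjusted p 0.0107), Ddit4, a stress-induced brake on mTORC1 (-1.22, SE 0.28, edgeR adjusted p 0.0147), Eif4e, the cap-binding factor, Rps6kb1, the kinase of Rps6, and Rheb, the activator of mTORC1. The calls of Eif4e, Rps6kb1 and Rheb were lost under total counts, in a fit of only the groups compared, and without any young liver or old Rosa26 replicate 1 or 2. That of Rheb was also lost with no filter and with guides apart, and those of Rheb and Rps6kb1 with upper-quartile scaling. That of Larp4 was lost without young replicate 2, and that of Ddit4 without that liver and in a fit of only the groups compared. Larp1 (-0.22, SE 0.13), Mtor (-0.24, SE 0.15) and Myc (0.44, SE 0.35) did not pass. None of the 29 passed with knockout.

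In the rescue of stalled ribosomes 3 of 25 genes were lower with age and none higher (12%, beside 22.8% of all genes called and 8.66% called lower). Pelo, which splits stalled ribosomes, fell from 33.4, 48.5 and 42.2 CPM in young to 24.6, 17.9 and 20.1 CPM in old Rosa26 livers (-0.99, SE 0.17, edgeR adjusted p 0.00819), and its partner Abce1 fell by 0.64 (SE 0.15, edgeR adjusted p 0.0155). Eif4e2, which represses messages with collided ribosomes, had -0.39 and lost its call under total counts, upper-quartile scaling, no filter and a fit of only the groups compared, and without any young liver or old Rosa26 replicate 1 or 2. Of 12 genes that handle free ribosomal proteins or answer to them through p53, 3 were lower (25%, beside the same shares): Cdkn1a, the p53 target that stops the cell cycle, with 85.3, 157 and 77.3 CPM in young and 27.5, 34.0 and 20.1 CPM in old Rosa26 livers (-1.97, SE 0.28, edgeR adjusted p 0.00667), Rrs1, a loader of the 5S particle (-0.93, SE 0.19, edgeR adjusted p 0.0107), and Grwd1, the chaperone of Rpl3 (-0.86, SE 0.19, edgeR adjusted p 0.0141). The calls of Abce1 and Grwd1 were lost under total counts and without young replicate 2 or old Rosa26 replicate 2. With knockout none of either list passed.

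Among genes outside the 86 symbols, those whose log2 CPM over the 10 livers was most like the mean of the 77 canonical genes were Fbxl2 (Pearson's r 0.99), Cox14 (0.99), Gm12191 (0.99), Mrpl14 (0.98) and Fanci (0.98). Gm12191 cannot count as a separate gene here: its CPM followed that of Rpl30 in every liver, with 194.7 against 195.0 in old Rosa26 replicate 1 and 106.2 against 107.4 in replicate 3, so its likeness is not independent of the group. Cox14, an assembly factor of respiratory complex IV, had 32.7, 25.1 and 16.02 CPM in old Rosa26 replicates 1, 2 and 3 and 22.7 to 24.9 CPM in young livers. These values describe likeness over 10 libraries that share scaling, with old Rosa26 replicates 1 and 3 at the ends; without replicate 3 they were 0.98, 0.97, 0.98, 0.96 and 0.94.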

How the data were processed

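The authors deposited 1 table of raw, unnormalized counts by gene symbol. Libraries were made from polyadenylated RNA and read as pairs, per the labels' protocols. The submitters' processing notes name FastQC 0.11.8, Trim Galore 0.4.4, STAR 2.5.3a, HOMER and build mm10, and the annotation, strand setting and handling of reads that fit several places are not given in the sources used here. Counts were tested with edgeR 4.0.16 in R 4.3.3 (quasi-likelihood test, 1 coefficient per group over 10 livers, TMM factors, filterByExpr with a minimum count of 10 and a total of 15, Benjamini-Hochberg adjustment over 13909 genes). Guides were fitted as separate groups over 14153 genes. SEs are the size of a log2 fold change divided by the square root of F. Deviations used log2 CPM with a prior count of 2. In simulated counts for 13909 genes, 44% of 100 genes changed by a log2 of 1 and 87% of 100 changed by 2 were recovered in the age comparison (60% and 89% for knockout). No 2 livers of a group agreed within sampling noise (lowest chi-square over its degrees of freedom 21.7). Positions and lengths are those of GENCODE M21, matched by symbol for 97.1% of symbols. Lengths given or correlated are those of the shortest principal coding transcript, a choice made after implausible lengths were seen. The correction for GC content and length did not use that choice. It used the best-supported principal coding transcript, the longest where several ranked equal. Members, lists and tests were chosen with earlier results of these data known. Named genes are copies and relatives, the stalk proteins, Rpsa, Rps27a and Rps6, genes called or nearest to it in each comparison, the highest and lowest per length and the most and least variable; further ones were named after their values were seen (Rpl4, Rpl15, Rpl39, Rps29). Alternatives were RLE and total-count scaling, TMM factors without the members, no filter, DESeq2 1.42.0, limma voom 3.58.1, fewer groups, guides apart, a correction for GC content and length (mgcv 1.9.3), each liver left out, and, added after seeing the data, upper-quartile scaling, the correction under other scalings, and refiltering without a liver.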

Additional observations from a re-analysis of the deposited data

Results flagged for a closer look

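Among the 4 knockout livers, 63 results were examined for a liver lying far from the others, taking the gap to the nearest liver as a share of the group's range, with a limit of about 0.83. Chance flags about 1 in 20 such groups, which is 3.15 of 63, and 5 were flagged. Rpl6 was at 329.8, 330.7, 332.2 and 347.4 CPM with replicate 4 apart (gap share 0.862). Rpl32l was at 1.27, 1.28, 1.44 and 2.27 CPM, again with replicate 4 apart (0.833), on counts of 22 to 39. Rps6kb1 was at 28.4, 28.8, 29.0 and 35.3 CPM with replicate 4 apart (0.918). Eif4e was at 34.8, 36.2, 37.5 and 52.0 CPM with replicate 1 apart (0.842). The count of Rps27rt as a share of that of Rps27 was 100% in 3 livers and 100.1% in replicate 2, a gap share of 1 that rests on 5 counts.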

How the results depend on the processing

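Rpl7l1, the only gene of the 86 past its threshold, kept its direction under every alternative in both comparisons where it passed. The medians with age of the mitochondrial list and of the other TOP messages changed sign under total counts. The median of all genes was then 0.34, in place of 0.04, and both lists stayed below it. With age, 1 gene passed; total counts gave 0, a fit of only the groups compared 0, and the GC and length correction 3 (Rpl7l1, Rps19bp1 and Rps2). Among alternatives chosen after seeing the data, that correction gave 3 with RLE factors, 3 with TMM factors without the members, 2 with total counts and 2 with upper-quartile scaling. Leaving out a liver gave 0 to 4, also with genes filtered again: 2 without old Rosa26 replicate 1, 4 without replicate 3 and 0 without any other. The median with age was 0.38 under total counts. For knockout against young, 1 passed; total counts gave 2 (Rpl21 and Rpl41, higher), no filter 0, limma voom 0, knockout divided by guide 0, only the groups compared 5 (Rpl38, Rps12 and Rps29 higher, Rpl7l1 and Rps4l lower) and the GC and length correction 2 (Rpl7l1 and Rpl8). Added later, upper-quartile scaling gave 0, and the correction 2 with RLE factors and 2 with TMM factors without the members. Leaving out a liver gave 0 to 1, also with genes filtered again. The median there was 0.47 under total counts. The cause was not tested. For knockout against old Rosa26, 0 passed under every alternative run. The difference in share of counts, old minus young Rosa26, was 0.396 percentage points (0.151 without old replicate 1, 0.703 without replicate 3); for knockout minus old Rosa26 it was 0.117 (-0.190 without old replicate 3). No paired analysis was possible because nothing in the labels ties a liver of one group to a liver of another. With 3 or 4 livers a group, log2 differences of 1 were often missed in simulated counts, where the changed genes were drawn from all genes tested. For the 86 genes themselves all 95% intervals of the main fit with TMM factors lay within 2-fold of no change with age and with knockout. They were not adjusted for the number of genes. Intervals were not computed for the alternatives, so this bound holds for that scaling only.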
